A study of Mus musculus with 14 samples.

Results

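The paired miR-23/27/24 clusters are 2 short stretches of the mouse genome, each holding 1 miR-23, 1 miR-27 and 1 miR-24 hairpin. The members were taken by name: mmu-mir-23a, mmu-mir-27a and mmu-mir-24-2 form the cluster of chromosome 8, and mmu-mir-23b, mmu-mir-27b and mmu-mir-24-1 that of chromosome 13 (written without the mouse prefix from here on). All 6 had a row among the 539 hairpins (miRNA precursors) of the authors' deposited table. The material was small RNA from exosomes, vesicles that carry RNA between cells, released in culture by adipose tissue macrophages (ATMs) that carry CD11b and a further macrophage surface marker. The groups are 7 libraries of exosomes from ATMs of obese C57BL/6 mice and 7 from ATMs of lean C57BL/6 mice. Cells of both groups stood for 72 h in IMDM with 10% FBS freed of exosomes. The labels do not say how obesity was brought about, which fat depot was used, or whether each library came from its own animals, so the p-values speak of the spread from library to library, which may be technical. Age labels are ranges that start at 24 weeks throughout, and their upper end steps by 1 week per sample in the order of listing, through 26 to 32 weeks in the obese group and 33 to 39 weeks in the lean group. Whether this stepping reflects true ages is not known, and if it does, age and obesity cannot be told apart.

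A cluster of this kind is transcribed as 1 long precursor, from which the hairpins are cut and then processed into mature miRNAs of the 5p and 3p arms. Bases 2 to 8 of a mature miRNA, its seed, choose most of its targets. miR-27 is known for restraining fat cell differentiation, in part through Pparg, the master regulator of adipocytes. The miR-23 and miR-27 families are known for their part in blood vessel growth, and the cluster of mir-23a has been tied to the choice between myeloid and lymphoid fates in blood formation.

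The mature 3p sequences are shown because they decide which rows can share reads. They come from RefSeq on GRCm38.p6, are written 5′ to 3′, and have the seed in capitals.
miR-23a-3p: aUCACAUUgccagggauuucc
miR-27a-3p: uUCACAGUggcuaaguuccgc
miR-27b-3p: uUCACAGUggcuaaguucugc
miR-24-3p: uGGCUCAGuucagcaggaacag
The miR-27 pair shares its seed and differs over the whole 3p arm by 1 base, C19U, counted from 1 at the 5′ end of miR-27a-3p. miR-24-3p is the same molecule from both hairpins, so a read of it cannot say whether it came from chromosome 8 or chromosome 13. The seeds of miR-23a-3p and miR-27a-3p differ by 1 base, U6G, counted from the first base of the seed. For miR-23 the hairpins are set side by side, with the whole of miR-23a-3p in capitals in the first and the 18 bases in a row that the second shares with it in capitals there.
mir-23a: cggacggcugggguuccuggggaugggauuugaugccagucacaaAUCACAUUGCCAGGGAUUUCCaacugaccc
mir-23b: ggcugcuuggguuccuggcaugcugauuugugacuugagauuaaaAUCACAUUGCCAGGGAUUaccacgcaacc
Over the 21 bases of miR-23a-3p the mir-23b hairpin departs from it by U19A. The 5p arms of the miR-24 hairpins, unlike the 3p arm, tell the copies apart.
miR-24-2-5p: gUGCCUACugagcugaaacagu
miR-24-1-5p: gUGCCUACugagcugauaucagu
The rows of the table name hairpins, so both arms are joined in each value. Among mature mouse miRNAs of RefSeq, the seed of miR-27 was held by miR-27a-3p and miR-27b-3p alone. That of miR-24-3p occurred in 6 hairpins, of which mir-24-1 and mir-24-2 had a row.

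On GRCm38, in GENCODE M21, the chromosome 8 cluster spans 404 bases of the plus strand, from 84208518 to 84208921. The hairpins mir-23a (ENSMUSG00000065611.1), mir-27a (ENSMUSG00000065444.1) and mir-24-2 (ENSMUSG00000065541.1) lie 79 and 56 bases apart in that order. They stand outside protein-coding genes, and mir-24-2 overlaps the first 2 bases of the long noncoding RNA Gm26532. The chromosome 13 cluster spans 792 bases of the plus strand, from 63300484 to 63301275, inside the gene 2010111I01Rik and opposite an intron of Fancc. There mir-23b (ENSMUSG00000065599.2) is intronic, while mir-27b (ENSMUSG00000065475.2) and mir-24-1 (ENSMUSG00000105904.1) lie in introns or exons of 2010111I01Rik, depending on the transcript. Each miR-24 hairpin has another hairpin on the opposite strand, mir-3074-2 on chromosome 8 and mir-3074-1 on chromosome 13. The build behind the authors' deposited table is not stated in the labels or files read here.

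For each hairpin the authors gave the log2 fold change between the groups, the mean log2 expression over both groups, and a p-value. No value of a single library was analysed here, so the spread within a group, the overlap of the groups, the group means and the depth of each library are unknown. Nor does the table name the group on top of its fold changes. According to published work, exosomes of obese ATMs carry more miR-155, and the authors' deposited table has mir-155 at a log2 fold change of 4.41. Positive values therefore lie on the side of mir-155, which is the obese side if that report is taken as given. All directions below rest on this reading. A hairpin is called here where its adjusted p is under 0.05, which the authors' deposited table shows for 30 of 539 (5.57%), with 11 above 0 and 19 below. The balance of signs varied with the processing: taking off 0.09, the median of all hairpins, left 10 calls positive and 19 negative, taking off 0.34, the median log2 fold change of the 180 rows of highest level, left 8 calls positive and 25 negative, and keeping the 231 hairpins with a mean log2 expression of at least 3.32 gave 16 of each. Of 7 macrophage and myeloid marker hairpins, 7 had a row, with mean log2 expression from 4.17 for mir-511 to 15.02 for mir-22 in the authors' deposited table. Of the 7, the authors' deposited table has mir-155 called on the positive side and mir-511 on the negative side, with −4.70 (adjusted p = 0.0148).

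As deposited, both miR-27 hairpins stood on the positive side with intervals above 0, and the miR-23 and miR-24 hairpins stood near 0. None of the 6 was called in the authors' test, whose columns are those of limma, against 5.57% of all hairpins and 8.89% of the 180 most abundant. At an unadjusted p under 0.05, 2 of the 6 passed, mir-27a and mir-27b, both positive, against 17.6% of all hairpins (8.53% on the positive side). The share at this threshold among the 180 most abundant was not counted, so these shares are not matched to the level of the 6. Every one of the 6 had a positive value in the authors' deposited table, where 52.7% of all hairpins and 67.8% of the 180 most abundant, to which all 6 belong, are positive. The median of the 6 was 0.37 in the authors' deposited table, beside 0.34 for those 180 and 0.09 for all 539. With 0.34 taken off, mir-23a and mir-24-2 turned negative.

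The hairpin mir-27a had the largest value of the 6, for which the authors' deposited table gives a log2 fold change of 1.80 (3.48-fold; adjusted p = 0.0740). Its standard error, the fold change divided by the deposited t, is 0.57, which gives a 95% interval from 0.60 to 3.0. It ranked 41 of 539 by p (p = 0.00563 in the authors' deposited table), while the largest p that was called was 0.00240. With its standard error, a log2 fold change of 2.02 would reach the smallest absolute t that was called, 3.53. Among the 180 most abundant hairpins 16 had a larger positive value than mir-27a. The call depended on which hairpins were adjusted for: with the 231 hairpins of mean log2 expression of at least 3.32 the adjusted p of mir-27a was 0.0407, and at an adjusted p under 0.1 it was the 1 member of the 6 to pass, against 8.35% of all hairpins.

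The hairpin mir-27b, its relative on chromosome 13, stood in the authors' deposited table at a log2 fold change of 1.21 (2.31-fold; adjusted p = 0.168). Its 95% interval ran from 0.20 to 2.21, with a standard error of 0.48. A value of 1.69 would have been needed for a call at that error. Under each centring tried the values of both miR-27 hairpins stayed positive, at 1.46 for mir-27a and 0.87 for mir-27b with 0.34 taken off. Because 0.34 exceeds the lower end of 0.20, the 95% interval of mir-27b then includes 0. The adjusted p at that centring was 0.179 for mir-27a and 0.368 for mir-27b.

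**Figure D1:**
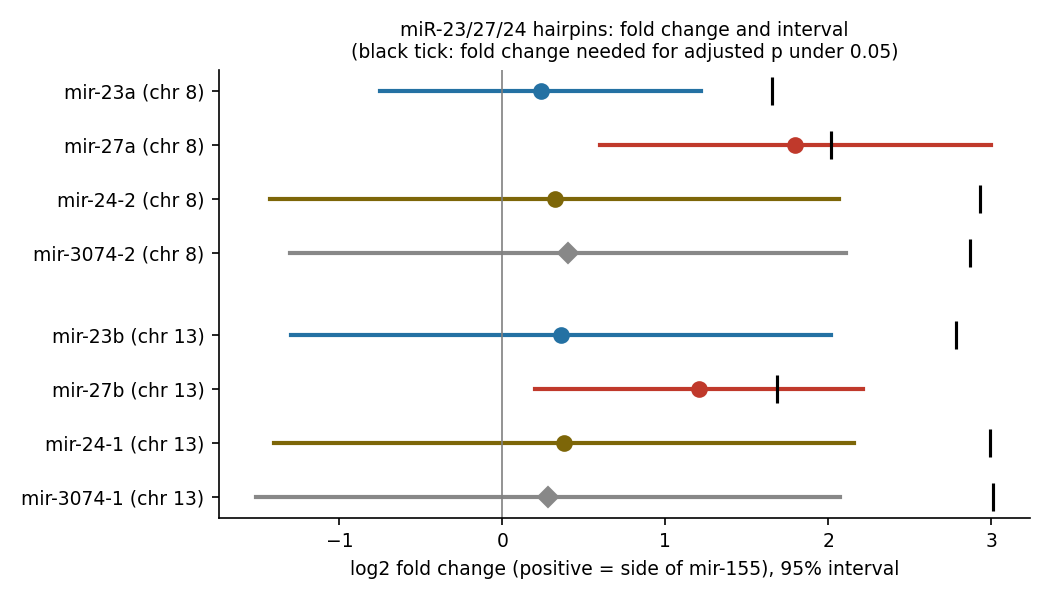
Log2 fold changes (x axis; positive is the side of mir-155) of the 6 hairpins and of the 2 mir-3074 hairpins opposite miR-24, from the authors' deposited table; bars are 95% intervals and black ticks the value needed at each hairpin's own standard error to reach the smallest absolute t that was called. Both miR-27 intervals lie above 0, and every point lies left of its tick.

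The miR-23 hairpins lay close to 0. In the authors' deposited table mir-23a had a log2 fold change of 0.24 (adjusted p = 0.890) and mir-23b one of 0.36 (adjusted p = 0.898). The 95% interval of mir-23a ran from −0.75 to 1.22, and that of mir-23b from −1.30 to 2.02. For mir-23a, which had the smallest standard error of the 6 at 0.47, a rise above 2.33-fold or a fall below 0.59-fold is thus outside the interval, whereas mir-23b could differ by up to 4.05-fold. With 0.34 taken off, mir-23a stood at −0.10 and mir-23b at 0.02.

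The miR-24 copies had the widest errors. In the authors' deposited table mir-24-2 had a log2 fold change of 0.32 (adjusted p = 0.912) and mir-24-1 one of 0.38 (adjusted p = 0.901). Their 95% intervals ran from −1.42 to 2.07 for mir-24-2 and from −1.40 to 2.16 for mir-24-1. Since reads of miR-24-3p match both hairpins and their assignment is not known, the rows cannot be taken as separate measurements of the clusters. After 0.34 was taken off, mir-24-2 was at −0.02 and mir-24-1 at 0.04.

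The opposite-strand hairpins gave nearly the same numbers as miR-24. In the authors' deposited table mir-3074-2 had a log2 fold change of 0.40 and a mean log2 expression of 9.24, beside 0.32 and 9.18 for mir-24-2. Likewise mir-3074-1 had 0.28 and 9.09, beside 0.38 and 9.12 for mir-24-1, in the authors' deposited table. The mature sequence of mir-3074 that faces miR-24-3p is shown here, with its own seed in capitals.
miR-3074-5p: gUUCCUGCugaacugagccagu
In it, 20 bases in a row are the reverse complement of miR-24-3p. In 4 other pairs of opposite-strand hairpins whose members both reach a mean log2 expression of 3.32, namely mir-126a and mir-126b, mir-451a and mir-451b, mir-338 and mir-3065, and mir-374b and mir-374c, the mean log2 expression differed by a median of 0.29 and at most 0.55. Whether reads were counted by strand is not stated in the labels or files read here, so mir-24 and mir-3074 cannot be told apart in these rows, and the part of a shared count in their likeness was not tested.

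The members covered a wide range of levels. In the authors' deposited table mir-27b had a mean log2 expression of 15.09, the third highest of 539. It was followed by mir-27a at 11.10 (rank 43), mir-23a at 10.95 (rank 47), mir-23b at 10.47 (rank 52), mir-24-2 at 9.18 (rank 89) and mir-24-1 at 9.12 (rank 92) in the authors' deposited table. These are levels per hairpin row. The mature arms are 21 to 23 bases long and the hairpins 68 to 107, and whether the authors scaled by length is not known, so the order is a description. The spread of each level over libraries is unknown, and no difference between neighbours in this order was tested. The gaps ranged widely, with mir-27b and mir-27a 4.0 apart and mir-24-2 and mir-24-1 0.06 apart. Ligation and amplification in library making also favour some sequences, which limits comparisons between different miRNAs.

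The miR-27 relatives were 4.0 log2 units apart in mean expression, with mir-27b the higher by 16.0-fold, although their 3p arms differ by 1 base. By contrast mir-23a was 0.48 above mir-23b. Of 103 other pairs of lettered relatives (miRNAs of one number, such as let-7a and let-7b) above the same minimum, 20 were at least as far apart in level as the miR-27 pair and 88 as the miR-23 pair. Along the chromosome 8 cluster the levels lay within 1.91 log2 units, and along the chromosome 13 cluster it covered 5.97, between mir-27b and mir-24-1. How reads that match both relatives were assigned is not stated in the labels or files read here.

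**Figure D2:**
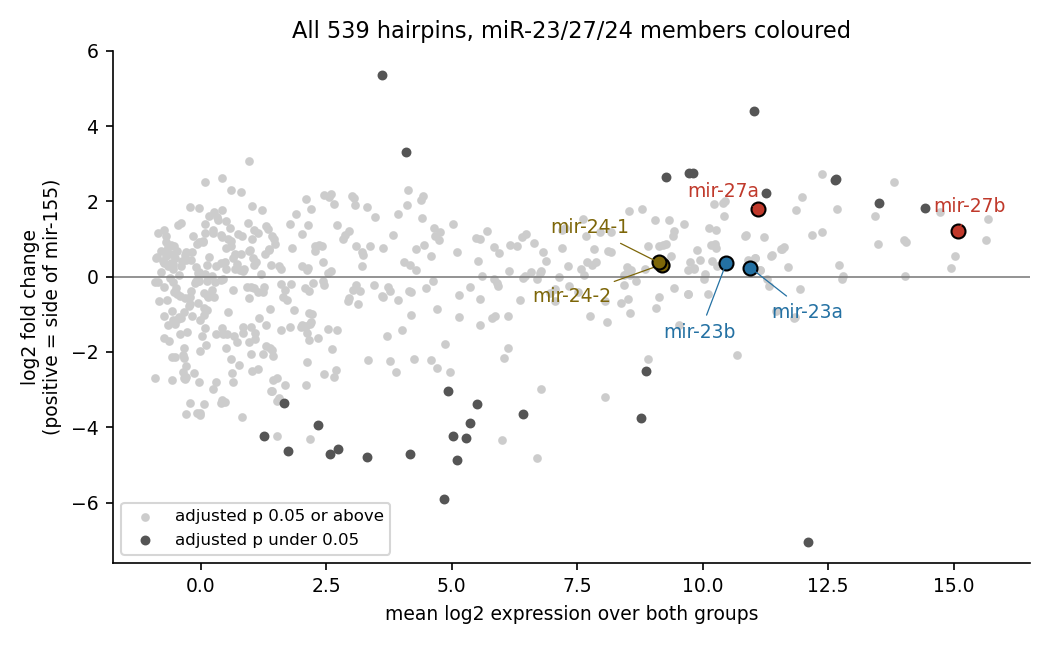
Mean log2 expression over both groups (x axis) against log2 fold change (y axis; positive is the side of mir-155) for 539 hairpins of the authors' deposited table, with called hairpins dark and the 6 members coloured. The 6 lie among the abundant hairpins on the right, mir-27b at 15.09, and none is among the called ones.

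Relatives on different chromosomes lay closer in log2 fold change than the miR-27 hairpins did to their cluster mates. Between relatives on different chromosomes the log2 fold changes differed by 0.59 for mir-27a minus mir-27b, −0.12 for mir-23a minus mir-23b and −0.05 for mir-24-2 minus mir-24-1. Reads of miR-24-3p match both miR-24 hairpins, so the closeness of these copies is not that of separate measurements. The miR-27 3p arms differ by 1 base, and the mir-23b hairpin departs from miR-23a-3p by 1 base. How reads that match both relatives were assigned is not known, so these pairs may not be separate measurements either. Within the chromosome 8 cluster mir-27a exceeded mir-23a by 1.56 and mir-24-2 by 1.47. On chromosome 13 mir-27b exceeded mir-23b by 0.85 and mir-24-1 by 0.83. The miR-23 and miR-24 hairpins of a cluster lay close together, at −0.09 for mir-23a minus mir-24-2 and −0.02 for mir-23b minus mir-24-1. None of these differences could be tested, since the rows share libraries and their covariance is unknown. The widest 95% interval that any correlation between rows allows ran from −0.63 to 3.75 for mir-27a minus mir-23a, from −1.81 to 3.51 for mir-27b minus mir-23b and from −1.62 to 2.80 for mir-27a minus mir-27b, and each includes 0.

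Other cluster mates of the table, hairpins of one strand within 10000 bases that both reach a mean log2 expression of 3.32, differed in log2 fold change by a median of 0.47 over 43 pairs. Of these pairs 2 were at least as far apart as mir-27a and mir-23a, and 14 at least as far as mir-27b and mir-23b. The 2 pairs, named after their values were seen, are mir-29a with mir-29b-1, 5.66 apart, and mir-188 with mir-532, 2.44 apart. Neighbours in other families built of paired hairpins lay both closer and farther apart, with 0.10 between mir-221 and mir-222, 0.17 between mir-181a-1 and mir-181b-1 and also between mir-181a-2 and mir-181b-2, 0.46 between mir-181c and mir-181d (not placed as a pair here, and with mir-181d just under the level minimum), 1.18 between mir-29b-2 and mir-29c, and the 5.66 of the mir-29a pair. Of these 12 hairpins, the authors' deposited table has 5 called on the positive side and 1 on the negative side. The shares called were 5.57% of all hairpins and 8.89% of the 180 most abundant. Positive calls were mir-222 at 1.82 (adjusted p = 0.0240) and the mir-181a and mir-181b copies from 2.57 to 2.75. The copies of mir-181a differ by 0.01, as do those of mir-181b. The negative call was mir-29b-1 at −3.66 (adjusted p = 0.0310). With 0.34 taken off, mir-222 was no longer called (adjusted p = 0.0704).

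**Figure D3:**
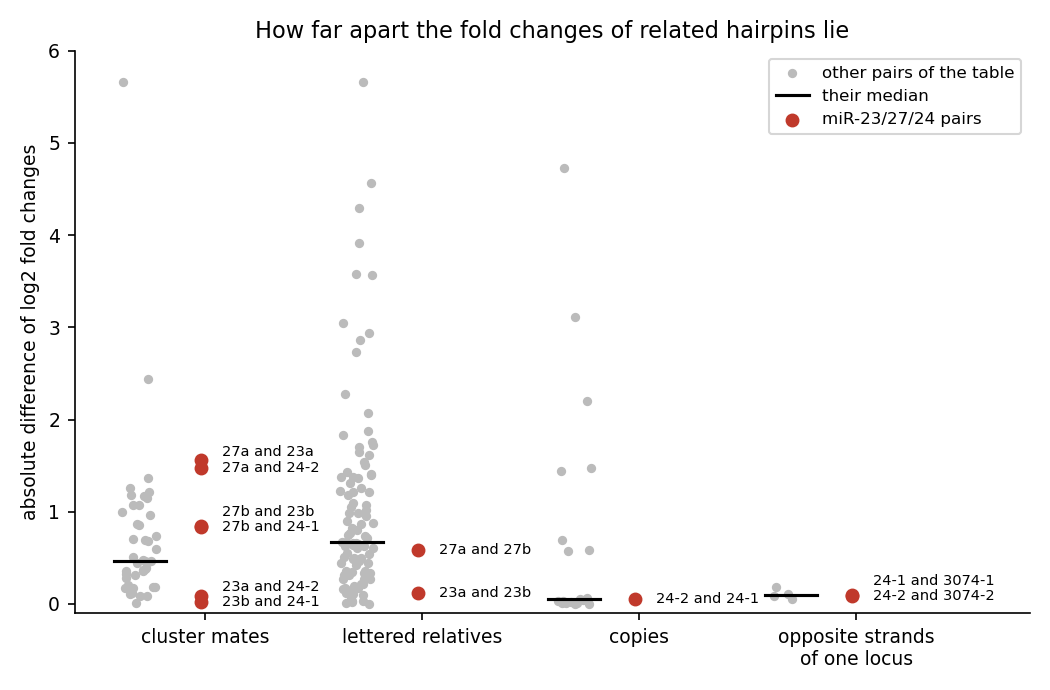
Absolute difference of log2 fold changes (y axis) between related hairpins of 4 kinds, for miR-23/27/24 pairs (red, labelled) and for the other pairs in which both reach a mean log2 expression of 3.32 (grey, black line their median). The pairs of mir-27a with mir-23a and with mir-24-2 lie at 1.56 and 1.47, above the median of 0.47 for other cluster mates, while mir-24-2 and mir-24-1, both matched by reads of miR-24-3p, lie 0.05 apart.

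Hairpins of the same level gave varied fold changes. Next to mir-27a in mean log2 expression stand mir-16-1 and mir-16-2, with log2 fold changes of 0.18 and 0.18, and below it mir-26a-1 and mir-26a-2, with 0.48 and 0.50, in the authors' deposited table. Around mir-27b are mir-191 at 1.54, mir-10a at 0.96, mir-22 at 0.54 and mir-21a at 0.24 in the authors' deposited table. Near mir-23a are mir-26a-2, mir-155, mir-125b-2 at 0.45 and mir-103-2 at 1.11, and mir-23b sits between mir-103-1 at 1.09 and mir-3535 at −2.09 above and mir-29a at 2.0 and mir-93 at 1.62 below, in the authors' deposited table. Close to the miR-24 copies, beside mir-3074-1 and mir-3074-2, are mir-674 at 0.84, mir-34a at −0.53, mir-30c-1 at 0.80 and mir-3473f at −0.84 in the authors' deposited table. Of these neighbours mir-155 alone was called. Likeness of level is the one likeness that the table allows, since a pattern over libraries cannot be drawn from it.

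**Figure D4:**
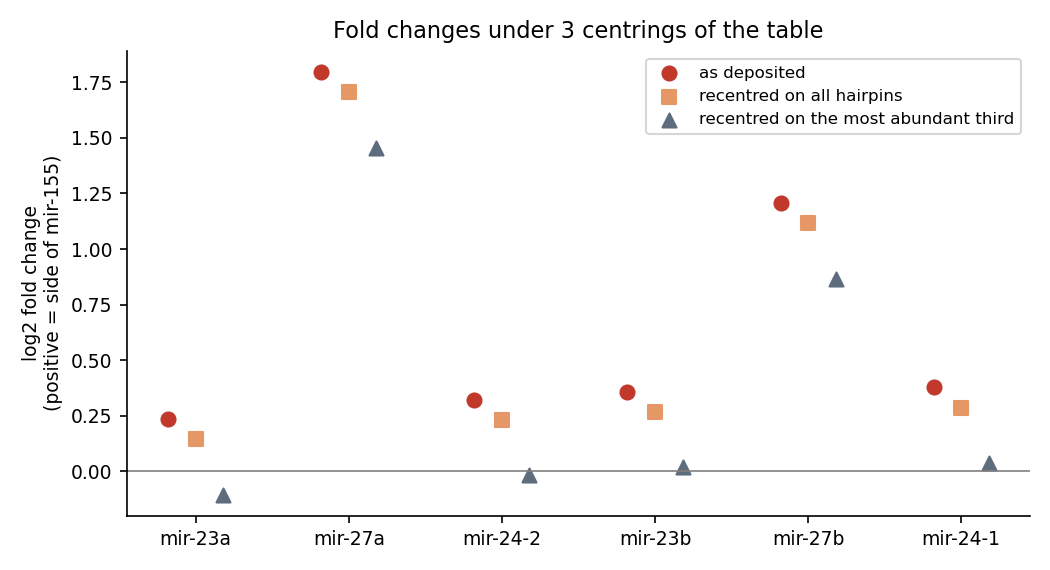
Log2 fold changes (y axis; positive is the side of mir-155) of the 6 hairpins as deposited, after taking off the median of all 539 hairpins, 0.09, and after taking off that of the 180 most abundant, 0.34. The points of both miR-27 hairpins stay above 0 throughout, whereas mir-23a and mir-24-2 pass below 0 in the last. Intervals are not drawn, and that of mir-27b includes 0 in the last.

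Other miRNAs with the roles known for these families were read from lists chosen with results of these data known. Of 7 hairpins beside miR-27 that are known to restrain fat cell differentiation and had a row, 1 was called, mir-155, against 5.57% of all hairpins, and 4 were positive, against 52.7%. The 4 include mir-155, which sets the direction read here, so its positive sign was fixed in advance. The median that follows includes it too. Their median log2 fold change was 0.77, beside 0.09 for all hairpins, and in the authors' deposited table mir-130b, which also acts on Pparg, stood at 0.77 (adjusted p = 0.394) and its relative mir-130a at 2.10 (adjusted p = 0.472). Of 13 hairpins known to promote fat cell differentiation, 1 was called, mir-210 at 2.64 (adjusted p = 0.00704), and 12 were positive (11 with 0.34 taken off), with a median of 1.09 in the authors' deposited table, against the same shares of 5.57% and 52.7% (67.8% positive among the 180 most abundant). That list holds both copies of mir-103, 0.02 apart in log2 fold change, and both copies of mir-26a, 0.01 apart. The 13 are therefore not 13 separate measurements. For 2 others of that list the authors' deposited table has values that did not pass, mir-30d with 1.61 (adjusted p = 0.123) and mir-30a with 1.18 (adjusted p = 0.350).

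Among hairpins known from blood vessel growth, 8 beside the 6 members had a row. Called on the positive side were mir-210, induced by low oxygen, and mir-222, and none was called on the negative side. That is 2 of 8, against 5.57% of all hairpins and 8.89% of the 180 most abundant, and with 0.34 taken off mir-210 alone of the 8 was called. All 8 were positive (6 with 0.34 taken off), against 52.7% of all hairpins and 67.8% of the 180 most abundant. Among them mir-126a stood at 0.01 and mir-378a at 0.02. Their median log2 fold change was 1.77 in the authors' deposited table, beside 0.34 for the 180 most abundant and 0.09 for all hairpins. There mir-92a-1, of the miR-17-92 cluster, stood at 2.52 (adjusted p = 0.0717). The list was not split by whether a miRNA promotes or restrains vessel growth, so a shared sign gives no direction for it. Endothelial cells, which are rich in miR-23, miR-27 and miR-24, could be carried in a sort from fat. Their markers mir-126a and mir-126b were at 0.01 and −0.18, with mean log2 expression of 6.46 and 5.91 in the authors' deposited table (−0.33 and −0.52 with 0.34 taken off). Both belong to 1 pair of opposite-strand hairpins. The 95% intervals ran from −4.01 to 4.04 for mir-126a and from −4.08 to 3.73 for mir-126b. Intervals that wide cannot say whether either hairpin rose, fell or stayed level. Of 5 stromal markers none was called, with values from −1.33 to 1.21 in the authors' deposited table. Of 5 lymphocyte markers all were positive, against 52.7% of all hairpins and 67.8% of the 180 most abundant, with a median of 2.58 in the authors' deposited table. Called were 4, the mir-181a and mir-181b copies, against 5.57% of all hairpins and 8.89% of the 180 most abundant, and the same 4 with 0.34 taken off. The copies of mir-181a differ by 0.01, as do those of mir-181b, so these are not 4 separate markers. The other marker, mir-150, stood at 0.59 and was not called (adjusted p = 0.910). Of 4 adipocyte markers 1 was called, against 5.57% of all hairpins. That was mir-365-2, which the authors' deposited table puts at −3.75 (adjusted p = 0.0266). Its copy mir-365-1 lay on the positive side, at 0.98 (adjusted p = 0.591), so the copies were 4.73 apart. Of 3 erythrocyte markers none was called. The part of such cells in the values of the 6 hairpins was not tested, and in exosome RNA a changed mix of cells and a changed load per vesicle cannot be told apart.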

How the data were processed

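Small RNA libraries of exosomes from 7 obese and 7 lean ATM cultures were compared by the authors, and the table of that comparison was analysed. Per the submitters' processing notes the tools included Novoalign, Trimmomatic 0.30, limma, edgeR, MultiQC and FastQC, with no role given. Build, annotation, counting and normalization are not stated in the labels or files read here. The authors deposited fold changes and mean levels as log2 values. With them come the authors' moderated t, a score with no unit, and raw and adjusted p-values. Column B, a natural log of odds per the file headers, was not used.

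The table has 0 columns of library values, so the planned count test could not be run and depth is unknown. Adjusting the raw p by Benjamini-Hochberg over 539 rows returned the authors' adjusted values. Degrees of freedom (17.9) were recovered from t and p, and intervals use them (Python 3.11.15, scipy 1.17.1; tested on simulated data). Pairs were found on RefSeq positions, which placed 447 of 539 hairpins. Named hairpins are the members, their strand partners, the 4 nearest in level (2 above and 2 below) and 3 of smallest p per list; the opposite-strand pairs, mir-188 and mir-532 were named after their values were seen. Members and lists were chosen with earlier results of these data known. Alternatives changed the centre, the threshold, a 2-fold minimum, a level minimum and the handling of copies.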

Additional observations from a re-analysis of the deposited data

How the results depend on the processing

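No hairpin of the 6 was called as deposited, after either recentring, with a 2-fold minimum or with 1 hairpin per stem (26 calls in all, mir-24-1 left out). The count was 1, mir-27a, at an adjusted p under 0.1 (45 calls, 8.35%) and 1, again mir-27a (adjusted p = 0.0407), among hairpins with a mean log2 expression of at least 3.32. The second has fewer hairpins to adjust over. Over its alternatives the adjusted p of mir-27a ran from 0.0407 to 0.179. Signs reversed for mir-23a, at −0.10, and mir-24-2, at −0.018, after recentring by 0.34, which by construction shifts every value. Recentring by 0.09 left 29 calls, 10 positive. No paired analysis was possible because values of single libraries were not analysed here, and for the same reason leaving out libraries was not run. Depth cannot be judged, and at standard errors of 0.47 to 0.85 log2 differences under 1.66 were not detectable as calls in any of the 6.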
